A study of Mus musculus with 72 samples.

Results

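The solute carrier families Slco and Slc22 hold most of the membrane proteins that carry organic anions and cations, drugs, bile acids, steroid conjugates, carnitine and prostaglandins into and out of cells. All genes of the deposited count table whose symbol starts with Slco or Slc22a followed by a digit were taken, which gave 39 of 20105 genes, 14 of them Slco and 25 Slc22a. A mean of 1 CPM (counts per 1000000 of a library, scaled for composition) or more in at least 1 of the 18 groups was reached by 22 of the 39, namely 6 Slco and 16 Slc22a genes, and 21 of these are described below. The other 17, which stayed under that level, were Slco1a5, Slco1a6, Slco1c1, Slco4a1, Slco4c1, Slco5a1, Slco6c1, Slco6d1, Slc22a2, Slc22a6, Slc22a8, Slc22a12, Slc22a13, Slc22a14, Slc22a16, Slc22a19 and Slc22a20.

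Slco genes encode the organic anion transporting polypeptides, which take up large amphipathic anions such as bile acids, bilirubin, steroid sulfates and thyroid hormones across the sinusoidal membrane of hepatocytes. Slc22a genes encode organic cation transporters, carnitine and ergothioneine transporters and organic anion transporters, many of which work in liver and kidney. In rodents both families have expanded into tandem arrays of related genes. Slco1a1 is a textbook gene of the male mouse liver whose expression depends on pulses of growth hormone.

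RNA was sequenced from liver nuclei of 36 mice, each of which gave 2 libraries: whole liver nuclei and hepatocyte nuclei captured on beads. Every animal, PBS controls included, carried CAG-Sun1/sfGFP and Albumin-Cre, so that Cre driven by the albumin promoter tags the nuclear envelope of hepatocytes with a green fluorescent protein. BALB/c mice received C26 cells (with a cachexia group and a pre-cachexia group), NC26 cells or PBS, and C57BL/6N mice received 8025 cells (a cachexia group), MC38 cells or PBS. C26 and 8025 are cachexia-inducing tumours, and their cachectic animals were taken after a body weight loss of more than 10%. All 36 animals, PBS controls included, were taken at zeitgeber time 9 h. NC26 and MC38 give cancer with stable weight. The 4 tumour cohorts came with PBS animals of their own, which gives 9 groups of 4 animals in each fraction. Sex and age are not given in the sources used here.

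In units of 1000000 counts, totals were 8.49 to 56.4 in the hepatocyte libraries and 12.2 to 30.3 in the whole liver libraries. In PBS animals all 14 endothelial markers, 11 of 12 Kupffer cell markers and 12 of 12 stellate cell markers were lower in hepatocyte nuclei than in whole liver nuclei, with median log2 differences of -2.63, -2.66 and -2.43, and 1 of 12 hepatocyte markers was higher. Of all 14054 genes tested between the fractions, 3711 were called higher in hepatocyte nuclei and 3443 lower. The summed hepatocyte markers averaged 17300 CPM in hepatocyte and 20800 CPM in whole liver nuclei of C26 PBS animals. In the same order they averaged 14700 and 16300 CPM in 8025, 19200 and 17600 in MC38, and 18200 and 16700 in NC26 PBS animals. C26 PBS animal 1 stood apart: the deviation of its hepatocyte library from the group correlated at -0.249 with that of its whole liver library. The value was over 0.1 for the other 35 animals (median over all, 0.673). This value cannot tell which library is the odd one. Genes with rRNA-like reads took 7% of its hepatocyte counts, against 2.06% to 3.51% in the other C26 PBS animals. In whole liver nuclei they took 1.09%, against 5% to 7.33%. Calls that omission of its hepatocyte library changes are given both ways. In bulk libraries such as these, fewer nuclei of a type and less RNA per nucleus cannot be told apart.

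Slco1b2, Slco1a4 and Slco1a1 sit together on chromosome 6, and 5 reported Slc22a genes sit in a row on chromosome 19. They are shown first because most of the large differences below fall among them. On mm10, Slco1b2 spans chr6:141629518-141686635 on the plus strand, Slco1a4 chr6:141805440-141856171 and Slco1a1 chr6:141907281-141946962, both on the minus strand. The chromosome 19 genes all lie on the minus strand: Slc22a26 at chr19:7781981-7802667, Slc22a27 at chr19:7864389-7966027, Slc22a28 at chr19:8062209-8131982, Slc22a29 at chr19:8160168-8218839 and Slc22a30 at chr19:8335623-8405105. Together the 5 cover 623 kb.

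The coding sequences of Slc22a28 and Slc22a30 were 98.8% identical, and those of Slc22a27 and Slc22a29 97.3%. Slc22a26 shared 74.6% to 75.1% with the other 4, and Slco1a1 shared 86.7% with Slco1a4 and 65.6% with Slco1b2. Reads from exons of the near-identical pairs could have been assigned to either copy, so the split of counts within a pair is uncertain. The counts cover whole genes with their introns, and no reported member overlaps another gene of the table.

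The 250 bases before the transcription start, from RefSeq on GRCm38.p6, are printed 5′ to 3′ on the gene's own strand for Slco1a1 (chr6:141946963-141947212), Slc22a26 (chr19:7802668-7802917), Slc22a27 (chr19:7966028-7966277), Slc22a28 (chr19:8131983-8132232), Slc22a29 (chr19:8218901-8219150) and Slc22a30 (chr19:8405106-8405355). Capitals mark a match to the STAT motif TTCNNNGAA or the C/EBP motif TTGCNNAA.
Slco1a1: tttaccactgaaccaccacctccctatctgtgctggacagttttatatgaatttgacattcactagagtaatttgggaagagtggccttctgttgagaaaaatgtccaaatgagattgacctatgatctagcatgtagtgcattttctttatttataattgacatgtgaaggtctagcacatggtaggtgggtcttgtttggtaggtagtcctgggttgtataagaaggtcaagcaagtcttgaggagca
Slc22a26: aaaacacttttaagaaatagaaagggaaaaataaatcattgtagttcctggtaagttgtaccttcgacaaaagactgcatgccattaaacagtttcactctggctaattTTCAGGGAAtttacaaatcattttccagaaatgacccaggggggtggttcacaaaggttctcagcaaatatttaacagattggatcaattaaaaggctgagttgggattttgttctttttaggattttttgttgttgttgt
Slc22a27: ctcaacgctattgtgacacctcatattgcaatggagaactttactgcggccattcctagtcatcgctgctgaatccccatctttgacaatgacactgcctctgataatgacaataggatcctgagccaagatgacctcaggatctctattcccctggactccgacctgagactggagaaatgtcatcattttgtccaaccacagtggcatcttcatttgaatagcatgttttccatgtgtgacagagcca
Slc22a28: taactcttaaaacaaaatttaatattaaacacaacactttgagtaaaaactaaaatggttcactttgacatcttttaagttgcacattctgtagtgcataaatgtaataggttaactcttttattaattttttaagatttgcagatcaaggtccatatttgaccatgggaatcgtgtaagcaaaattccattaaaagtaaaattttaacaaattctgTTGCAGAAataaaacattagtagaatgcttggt
Slc22a29: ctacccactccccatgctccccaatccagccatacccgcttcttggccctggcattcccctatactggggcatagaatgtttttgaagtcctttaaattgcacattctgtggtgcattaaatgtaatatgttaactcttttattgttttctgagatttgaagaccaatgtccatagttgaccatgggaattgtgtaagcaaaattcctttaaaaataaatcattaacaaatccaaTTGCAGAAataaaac
Slc22a30: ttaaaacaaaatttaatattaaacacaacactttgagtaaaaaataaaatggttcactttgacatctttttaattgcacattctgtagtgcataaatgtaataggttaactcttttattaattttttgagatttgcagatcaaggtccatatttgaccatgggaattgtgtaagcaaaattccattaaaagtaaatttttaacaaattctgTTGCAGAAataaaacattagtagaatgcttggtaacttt
The promoters of Slc22a28 and Slc22a30 were 97.5% identical over 244 aligned bases, and Slc22a29 shared 75.8% and 79.2% with them. Every other pair among the 6 lay between 57.7% and 65.9%. Both strands were searched. The C/EBP letters TTGCAGAA stood at -33 to -26 in Slc22a28, at -39 to -32 in Slc22a30 and at -15 to -8 in Slc22a29, counted from the start, and 9.56% of 32851 promoter windows of this length hold that motif. The start used for Slc22a29 lies upstream of its counted span, which ends at chr19:8218839, whereas the other windows adjoin theirs. Positions in Slc22a29 are therefore not directly comparable with those in the others. The STAT match TTCAGGGAA of Slc22a26 stood at -141 to -133, and 7.02% of windows hold one. Among the 18 reported members with a RefSeq entry (21 windows), 4 windows held a STAT match (Slc22a15, Slc22a26, Slco1b2 and Slco2b1), 3 a C/EBP match, 1 the HNF1 motif (Slc22a29, 0.371% of all windows) and 0 the HNF4 motif CAAAGTCCA (0.384%). The marked letters overlap no other motif searched. A match is a description of these letters and not evidence of a binding site.

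In hepatocyte nuclei of the 16 PBS animals, Slco1b2, the main basolateral uptake transporter for bilirubin and many drugs in mouse liver, had the highest level per length of the 22, with 29.6 ± 9.73 CPM per kb of counted gene (SD, n = 16). Slc22a30 followed at 21.9 ± 8.43 and Slco1a1 at 19.6 ± 7.49 CPM per kb, and each neighbouring pair in this order differed by less than its SDs. Further down, Slc22a23, an orphan member, had 5.48 CPM per kb, Slco1a4, a carrier of bile acids and cardiac glycosides, 4.57, and Slco2b1, a carrier of steroid sulfates, 3.64. Slc22a28 had 3.05 CPM per kb.

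The middle of the order held the carnitine transporter Slc22a5 (2.12 CPM per kb), the imprinted Slc22a18 (1.71), the organic anion transporter Slc22a7 (1.69), the prostaglandin transporter Slco2a1 (0.929), the ergothioneine transporter Slc22a4 (0.865) and Slc22a15 (0.501). Slc22a21, a carnitine transporter of the mouse, had 0.298, and the cation transporter Slc22a3 had 0.193. At the bottom, Slco3a1 stood at 0.0722, Slc22a27 at 0.0407, Slc22a17, a receptor for lipocalin-2, at 0.0268, Slc22a26 at 0.0226, Slc22a29 at 0.016 and Slc22a22, a prostaglandin carrier best known from kidney, at 0.0133 CPM per kb. The neighbouring genes of chromosome 19 thus held one of the highest levels, Slc22a30, and some of the lowest, Slc22a27, Slc22a26 and Slc22a29. By summed CPM, which does not correct for length, Slco1b2 made up 28% of the members' total, Slc22a30 25.2%, Slc22a23 15.1% and Slco1a1 12.9%.

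**Figure D1:**
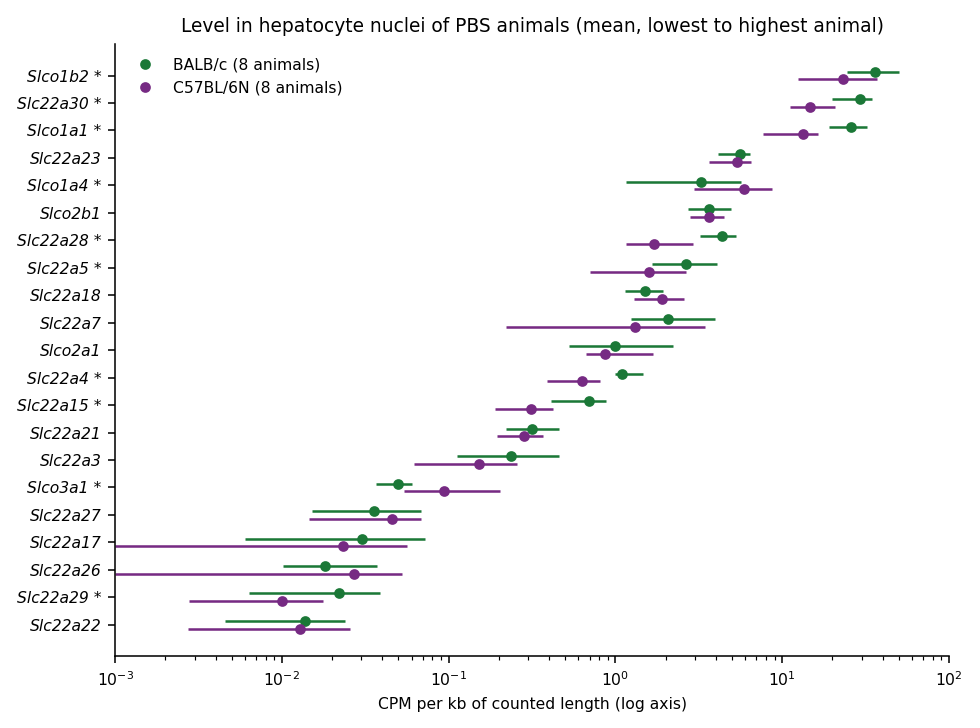
Level of 21 members in hepatocyte nuclei of PBS animals, in CPM per kb of counted gene on a log axis, by strain: points are means of 8 animals, lines run from the lowest to the highest animal (a lowest value of 0 is drawn at the left edge, 0.001), and stars mark members called between strains. Levels run from 29.6 CPM per kb for Slco1b2 to 0.0133 for Slc22a22 over all 16 animals, and Slc22a30, Slc22a28 and Slc22a15 lie higher in BALB/c.

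C26 cachexia was set against PBS to ask which of these transporters differ in hepatocytes of wasting BALB/c mice. Of the 24 members tested, 4 were higher and 4 lower, against 22.2% of all 13274 genes tested (12.2% higher, 10% lower), where a call is an adjusted p under 0.05 in edgeR's quasi-likelihood test with Benjamini-Hochberg adjustment over all genes. The median log2 difference over the tested members was -0.17, beside 0.000277 over all genes tested. Slco1a1, Slc22a28 and Slc22a30 fell and Slc22a26 and Slc22a27 rose. Slc22a18 and Slco2b1 rose by smaller amounts, and Slco1a6 fell at a level under 1 CPM (log2 -1.88, SE 0.51, adjusted p = 0.0075).

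Slco1a1 was at 760, 1090, 865 and 1150 CPM in the 4 C26 PBS animals and at 71.3, 24.7, 15.1 and 22.4 CPM in the 4 cachectic animals. Every cachectic animal lay far below every control, and animal 1 was the highest of the cachectic group. The mean fell from 967 ± 184 to 33.4 ± 25.6 CPM (SD, n = 4), which is 29-fold lower in the fit (log2 -4.86, SE 0.55, adjusted p = 2.6e-07).

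Slc22a28, one of the organic anion transporter genes of chromosome 19, was at 224, 324, 320 and 343 CPM in PBS animals and at 19.9, 17.4, 7.24 and 9.66 CPM in cachexia. The groups did not overlap, and the fall was 22.4-fold (log2 -4.49, SE 0.45, adjusted p = 5.4e-08). Its near-identical copy Slc22a30 was at 1390, 2030, 2270 and 2190 CPM in PBS animals and at 804, 835, 459 and 645 CPM in cachexia. These groups did not overlap either, but the fall was 2.87-fold (log2 -1.52, SE 0.28, adjusted p = 0.00016).

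Slc22a26 moved the other way: it was at 0.466, 0.771, 0.214 and 0.309 CPM in PBS animals, which rest on 5 to 22 counts each, and at 15, 1.71, 17.9 and 11.4 CPM in cachexia. All 4 cachectic animals were above all controls, and animal 2 rose least. The rise was 25.4-fold (log2 4.67, SE 0.88, adjusted p = 0.00025). Slc22a27 was at 1.54, 6.94, 2.87 and 4.86 CPM in PBS animals and at 30.1, 28.4, 25.3 and 23.7 CPM in cachexia. The cachectic animals lay close together and all above the controls, a rise of 6.57-fold (log2 2.71, SE 0.58, adjusted p = 0.00096). The calls for Slco1a1 and these 4 chromosome 19 genes in C26 and 8025 cachexia held under every alternative run in either fraction, including each left-out animal, C26 PBS animal 1 among them.

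Among the smaller changes, Slc22a18 was at 49.5, 30.7, 36.8 and 40.7 CPM in PBS and 54.6, 85.2, 62.2 and 57.2 CPM in cachexia, 1.64-fold higher without overlap (log2 0.72, SE 0.21, adjusted p = 0.013). Without cachectic animal 2 or PBS animal 2 its log2 value was 0.56 to 0.62 with adjusted p = 0.054 to 0.065. Slco2b1 was at 263, 214, 156 and 146 CPM in PBS and 320, 284, 274 and 235 CPM in cachexia (log2 0.51, SE 0.18, adjusted p = 0.043), and PBS animal 1 overlapped the cachectic range. That call was lost without any 1 of cachectic animals 1, 2 and 3 or PBS animals 2, 3 and 4, with log2 values of 0.40 to 0.56 and adjusted p up to 0.15. It was also lost without TMM, without the filter on low counts, without the genes with rRNA-like reads and with only the cohorts compared (adjusted p = 0.05 to 0.13).

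The most abundant member did not pass the test: Slco1b2 was at 1400, 2150, 1980 and 2110 CPM in PBS and 1680, 1200, 1310 and 2100 CPM in cachexia (log2 -0.28, SE 0.28, adjusted p = 0.51), with overlapping groups. Slco1a4, which lies between Slco1b2 and Slco1a1, was at 120, 175, 169 and 183 CPM in PBS and 239, 188, 241 and 370 CPM in cachexia. All 4 cachectic animals were above all controls, yet the difference did not pass over all genes (log2 0.68, SE 0.45, adjusted p = 0.29).

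Slc22a23 was at 689, 986, 976 and 959 CPM in PBS and 783, 846, 568 and 638 CPM in cachexia (log2 -0.35, adjusted p = 0.18), with overlap through PBS animal 1. Slco2a1, Slc22a4, Slc22a5, Slc22a7, Slc22a3 and Slc22a15 had log2 values between -0.52 and 0.29, and none was called. Slc22a29, the neighbour between Slc22a28 and Slc22a30, had a log2 value of 0.77 (SE 0.50, adjusted p = 0.28) at 1.44 CPM in PBS and 2.5 CPM in cachexia.

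8025 cachexia asked the same question in C57BL/6N mice with another tumour. Here 4 of the 24 tested members were higher and 3 lower, against 29.3% of 13274 genes (16.2% higher, 13.1% lower), and 7 of 24 is close to that background. Slco1a1, Slc22a28 and Slc22a30 fell, and Slc22a26, Slc22a27, Slc22a15 and Slco3a1 rose. No animal is shared with the C26 cohort.

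Slco1a1 was at 506, 601, 305 and 430 CPM in 8025 PBS animals and at 5.11, 41.8, 5.5 and 29.1 CPM in cachexia. The highest cachectic animal was still far below the lowest control, and the mean fell from 460 ± 125 to 20.4 ± 18.2 CPM (SD, n = 4), a 22.7-fold fall (log2 -4.50, SE 0.54, adjusted p = 3.5e-07). Slc22a28 was at 98.7, 204, 146 and 111 CPM in PBS and at 2.25, 8.9, 2.48 and 9.1 CPM in cachexia, 24.9-fold lower (log2 -4.64, SE 0.46, adjusted p = 2.1e-08). In both genes animals 2 and 4 of the cachectic group were the higher and animals 1 and 3 the lower. Slc22a30 was at 987, 1430, 1100 and 998 CPM in PBS and 311, 377, 163 and 377 CPM in cachexia, 3.68-fold lower without overlap (log2 -1.88, SE 0.28, adjusted p = 7.9e-06).

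Slc22a26 was at 0.506, 1.01, 0 and 1.09 CPM in 8025 PBS animals and at 79.7, 19.7, 5.53 and 21 CPM in cachexia. The control at 0 had the smallest hepatocyte library, where a count of 0 allows up to 0.353 CPM (3 counts, counting error only). Cachectic animal 1 was the highest, and all 4 were above the controls (log2 5.48, SE 0.88, adjusted p = 2.4e-05). Slc22a27 was at 4.63, 5.55, 6.46 and 6.91 CPM in PBS and 58.3, 80.9, 12 and 45.3 CPM in cachexia. Again no animal overlapped, and the rise was 8.41-fold (log2 3.07, SE 0.59, adjusted p = 2e-04).

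Slc22a15 was at 25.5, 13.1, 23.8 and 29 CPM in PBS and 59.9, 39.8, 33.4 and 44.1 CPM in cachexia, 1.94-fold higher without overlap (log2 0.96, SE 0.24, adjusted p = 0.0035). Slco3a1, a broadly expressed anion carrier, was at 24.8, 33.4, 15 and 17.7 CPM in PBS and 38.6, 31.1, 85.2 and 24.3 CPM in cachexia (log2 0.97, SE 0.35, adjusted p = 0.033), with animal 3 far above the rest. Without that animal the log2 value was 0.45 with adjusted p = 0.34, and the call was also lost without any 1 of PBS animals 1, 3 and 4 (adjusted p from 0.055), with only the cohorts compared (adjusted p = 0.1) and with a replicate block (adjusted p = 0.09). In hepatocyte nuclei of 8025 cachexia the summed Kupffer cell markers were at 135 to 169 CPM against 46.1 to 57 in PBS, with 10 of 12 higher. Of 10 tested cholangiocyte markers 8 were higher, beside 16.2% of all genes higher. The part of other cells in the values of Slco3a1 was not tested.

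The abundant Slco1b2 was at 1580, 1410, 708 and 956 CPM in 8025 PBS animals and 1190, 1160, 550 and 1180 CPM in cachexia (log2 -0.19, SE 0.28, adjusted p = 0.65). Slco1a4 was at 269, 151, 169 and 386 CPM in PBS and 328, 191, 212 and 140 CPM in cachexia (log2 -0.16, adjusted p = 0.81). The groups overlapped in both genes. Slc22a4 had a log2 value of -0.57 with adjusted p = 0.053, and was called lower without cachectic animal 1 or PBS animals 2 or 3 (log2 -0.75 to -0.66) and with a replicate block (adjusted p = 0.043).

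**Figure D2:**
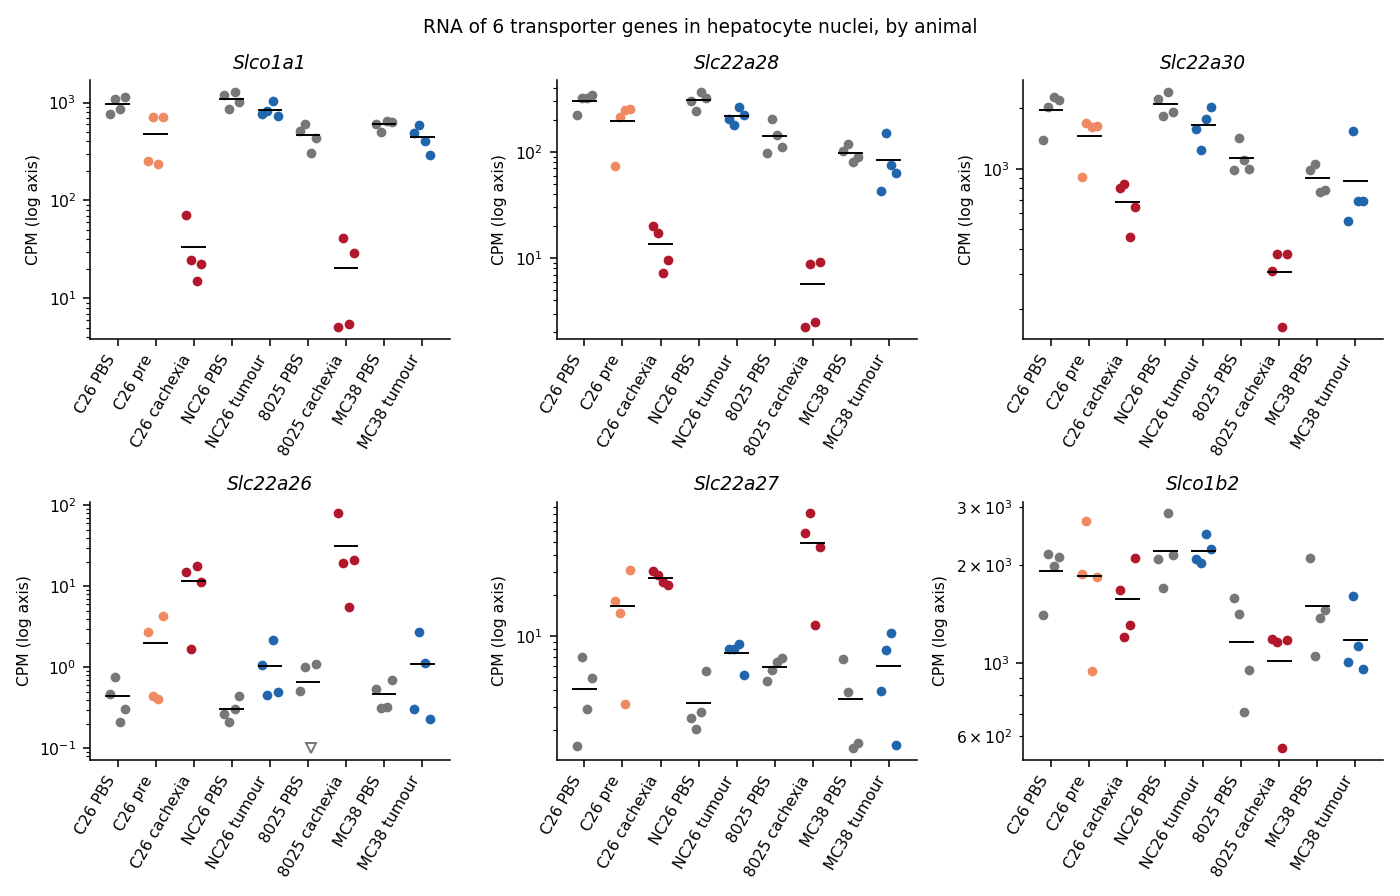
CPM on a log axis for Slco1a1, Slc22a28, Slc22a30, Slc22a26, Slc22a27 and Slco1b2 in hepatocyte nuclei of the 9 groups: points are animals, lines are group means of 4, and an open triangle at 0.1 marks the animal at 0. Slco1a1 and Slc22a28 sit lowest, and Slc22a26 and Slc22a27 highest, in the 2 cachexia groups, whereas Slco1b2 overlaps between groups.

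Ratios within a library do not depend on its scaling. Slc22a27 counts were 0.00685 to 0.0214 of Slc22a28 counts in C26 PBS hepatocyte libraries and 1.52 to 3.5 times Slc22a28 in C26 cachexia. In the 8025 cohort the ratio was 0.0273 to 0.062 in PBS and 4.85 to 25.9 in cachexia. The rarer neighbour thus gave more counts than the commoner one in all 8 cachectic hepatocyte libraries and in no PBS library. A smaller shift without overlap was seen with the NC26 tumour, at 0.023 to 0.0451 against 0.00746 to 0.0172 in PBS. The ratio overlapped PBS in C26 pre-cachexia (0.0128 to 0.25) and in the MC38 cohort (0.0246 to 0.14 against 0.0178 to 0.0657). The ratio of Slco1a1 to Slco1b2 counts went from 0.437 to 0.545 in C26 PBS to 0.0107 to 0.0425 in cachexia, and from 0.321 to 0.449 in 8025 PBS to 0.00429 to 0.036 in cachexia. It was also below PBS without overlap, by less, in C26 pre-cachexia (0.134 to 0.385). The same held for the NC26 tumour (0.328 to 0.414 against 0.445 to 0.57 in PBS). The MC38 groups overlapped (0.302 to 0.477 against 0.286 to 0.476 in PBS). These ratios compare counts over genes of different length and are read only between groups.

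**Figure D3:**
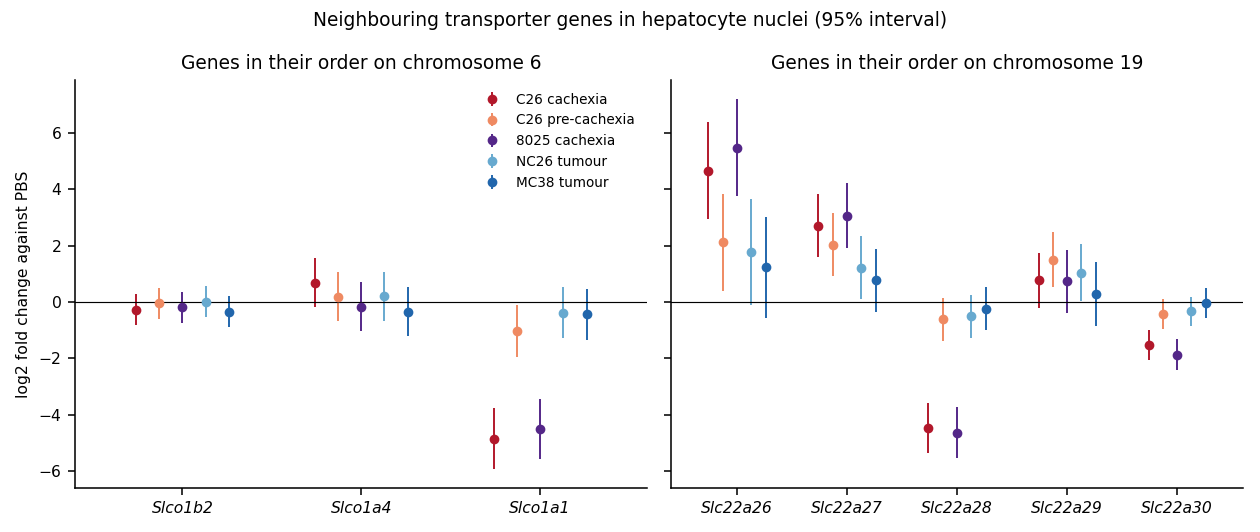
Log2 difference from PBS, with 95% interval, of the chromosome 6 genes (Slco1b2, Slco1a4, Slco1a1) and the chromosome 19 genes (Slc22a26 to Slc22a30) in gene order, for the 5 tumour comparisons in hepatocyte nuclei. In both cachexia groups Slco1a1 lies near -4.86 and -4.50 beside Slco1b2 at -0.28 and -0.19. The chromosome 19 row holds rises in Slc22a26 and Slc22a27 and falls in Slc22a28 and Slc22a30. Slc22a29, which lies between Slc22a28 and Slc22a30, was called in neither cachexia group and had a positive value in C26 cachexia.

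The 39 members summed to 7000 ± 1020 CPM in C26 PBS hepatocyte nuclei and to 4090 ± 531 in C26 cachexia, and to 4670 ± 872 in 8025 PBS and 3120 ± 564 in 8025 cachexia (SD, n = 4). The C26 groups did not overlap (5490 to 7660 against 3360 to 4490 CPM), and the 8025 groups overlapped slightly (3560 to 5510 against 2300 to 3580). Slc22a30 went from 28% to 16.7% of the members' CPM in the C26 cohort and from 24.6% to 9.66% in the 8025 cohort, and Slco1b2 from 27.2% to 38.2% and from 24.4% to 32.1%. These sums and shares were not tested.

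Weight-stable tumours asked whether a tumour without wasting is accompanied by the same differences. In hepatocyte nuclei edgeR called 0 of 24 members in NC26 mice (0.324% of all genes called) and 0 in MC38 mice (0% of all genes called), with 2 members at an unadjusted p under 0.05 in each, and DESeq2 also called 0 in both. Slco1a1 was at 1190, 850, 1280 and 1020 CPM in NC26 PBS animals and 756, 822, 1030 and 735 CPM with the NC26 tumour (log2 -0.38, adjusted p = 0.78). It was at 601, 502, 649 and 637 CPM in MC38 PBS animals and 484, 586, 403 and 290 CPM with the MC38 tumour (log2 -0.44, adjusted p = 1). The groups overlapped in both cohorts.

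Slc22a28 was at 302, 244, 367 and 320 CPM in NC26 PBS and 204, 178, 265 and 222 CPM with the tumour (log2 -0.51, adjusted p = 0.62), and Slc22a30 at 2220, 1830, 2410 and 1910 against 1570, 1240, 1770 and 2040 CPM (log2 -0.34, adjusted p = 0.63). Both overlapped between groups. In the MC38 cohort Slc22a28 was at 103, 120, 80.4 and 90.1 CPM in PBS and 42.8, 152, 74.8 and 63.2 CPM with the tumour, and Slc22a30 at 983, 1060, 767 and 784 against 548, 1540, 692 and 691 CPM. In both genes the MC38 tumour animals spanned the controls, with animal 2 highest.

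Slc22a26 was at 0.268, 0.211, 0.31 and 0.445 CPM in NC26 PBS and 1.06, 0.455, 2.18 and 0.492 CPM with the tumour, all above the controls but not called (log2 1.76, SE 0.96, adjusted p = 0.47). Slc22a27 was at 2.45, 2.03, 2.74 and 5.51 CPM and at 8, 8.04, 8.73 and 5.11 CPM (log2 1.22, SE 0.57, adjusted p = 0.39). In the MC38 cohort the log2 values were 1.23 (SE 0.92) for Slc22a26 and 0.78 for Slc22a27, each with adjusted p = 1. Slc22a26 and Slc22a27 therefore had positive and uncalled values in both weight-stable cohorts.

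Whether the cachexia effect differs from the weight-stable effect of the same strain was tested directly. The C26 effect was lower than the NC26 effect for 2 of 24 members (1.89% of all genes differed in either direction, 0.957% lower), Slco1a1 by -4.48 on the log2 scale (SE 0.69, adjusted p = 0.00044) and Slc22a28 by -3.98 (SE 0.57, adjusted p = 0.00034). The differences for Slc22a30 (-1.18, adjusted p = 0.1, and 0.049 in DESeq2), Slc22a26 (2.91, SE 1.35, adjusted p = 0.29) and Slc22a27 (1.49, adjusted p = 0.38) did not pass. The 8025 effect differed from the MC38 effect for 4 of 24 members (7.21% of all genes): Slc22a28 by -4.40 (adjusted p = 2.2e-05), Slco1a1 by -4.07 (adjusted p = 0.00056), Slc22a30 by -1.83 (adjusted p = 0.0039) and Slc22a26 by 4.26 (SE 1.27, adjusted p = 0.037). The call for Slc22a26 was lost without 8025 cachectic animal 1, 8025 PBS animals 1, 2 or 3, MC38 PBS animals 1, 3 or 4 or MC38 tumour animals 1, 3 or 4, with log2 differences of 3.22 to 4.51 and adjusted p up to 0.099, and with only the cohorts compared (adjusted p = 0.063). Each difference rests on different cohorts, each set against its own PBS animals. Anything else that alters the effect between cohorts cannot be told apart from the tumour.

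Between the 2 cachexia tumours, edgeR called 0 of 24 members (0.957% of all genes), with 2 at an unadjusted p under 0.05, and DESeq2 called 1. Slco1a6, under 1 CPM, was called without 8025 cachectic animal 4, 8025 PBS animal 3 or C26 cachectic animal 3 (log2 -3.33 to -3.04). The C26 effect minus the 8025 effect was -0.35 for Slco1a1 (SE 0.67, 95% interval -1.66 to 0.95) and 0.16 for Slc22a28 (SE 0.56, interval -0.95 to 1.26). Slc22a30 differed by 0.36, Slc22a26 by -0.82 (SE 1.21) and Slc22a27 by -0.36. The intervals leave room for a difference of more than 1 log2 unit in both Slco1a1 and Slc22a28. The SE of Slc22a26 was larger than theirs, so its difference is bounded less closely.

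**Figure D4:**
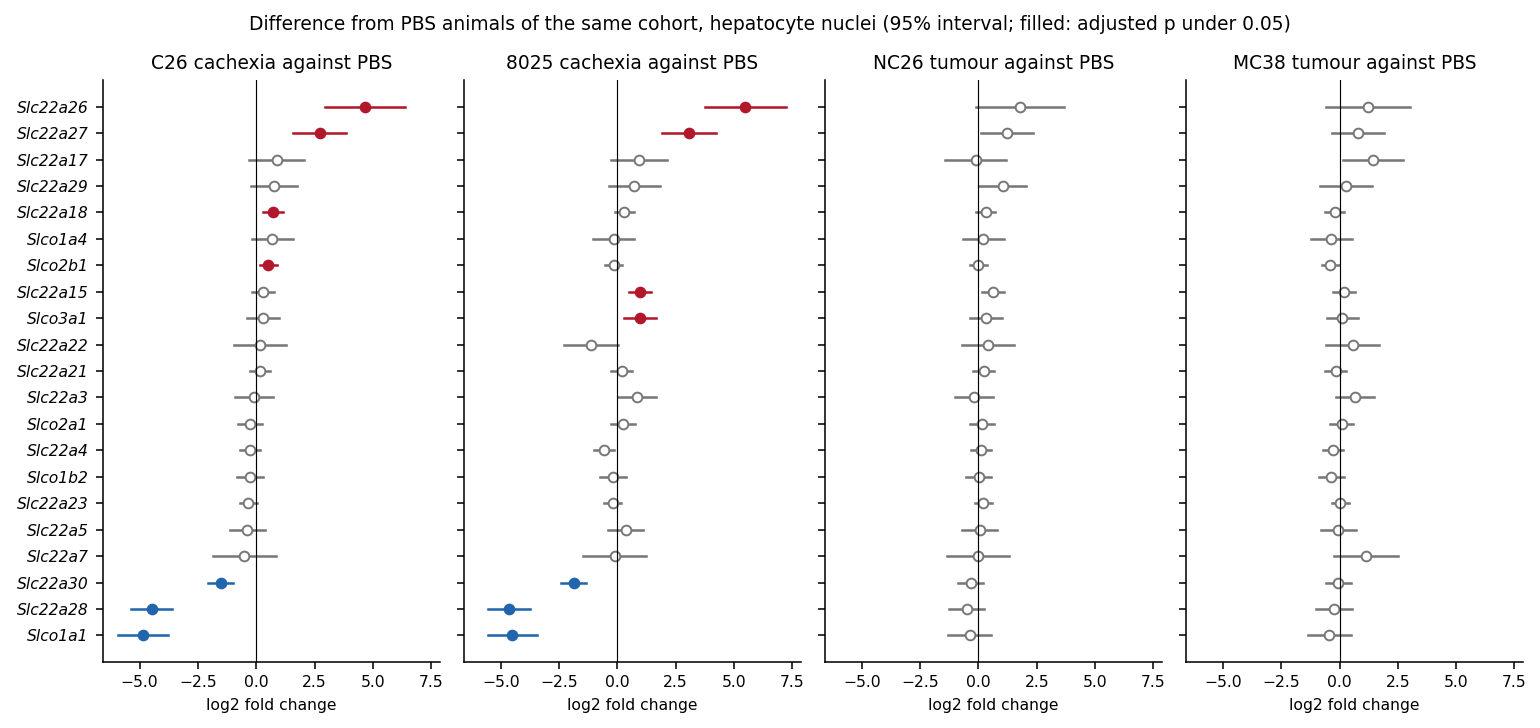
Log2 difference from PBS, with 95% interval, of 21 members in hepatocyte nuclei for C26 cachexia, 8025 cachexia, NC26 and MC38: filled points are called, red higher and blue lower. Slco1a1 and Slc22a28 lie below -4 in both cachexia panels and none is called in the NC26 and MC38 panels.

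Pre-cachexia adds a group of C26 tumour mice labelled as not yet cachectic, compared with the same PBS animals as the cachexia group, so the 2 comparisons share controls. In hepatocyte nuclei 1 of 24 members was called (7.72% of all genes, 4.78% higher), with 8 at an unadjusted p under 0.05. Slc22a27 was at 18.3, 14.9, 3.15 and 30.6 CPM, against 1.54 to 6.94 CPM in PBS, 4.1-fold higher (log2 2.04, SE 0.57, adjusted p = 0.026). Animal 3 lay within the control range. The call was lost without any 1 of PBS animals 1, 3 and 4 or pre-cachexia animals 1 and 4, with log2 values of 1.56 to 2.13 and adjusted p up to 0.1, and also with only the cohorts compared or a replicate block (adjusted p = 0.053 to 0.057). Without C26 PBS animal 1, whose libraries did not deviate together, Slc22a27 was at log2 1.77 and uncalled. In that run 3 other members were called higher: Slc22a17 (log2 2.06, adjusted p = 0.039), Slc22a18 (0.71, adjusted p = 0.037) and Slco2b1 (0.63, adjusted p = 0.028).

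Slco1a1 was at 252, 704, 237 and 710 CPM in pre-cachexia, all below the lowest PBS animal at 760, and was not called (log2 -1.02, SE 0.47, adjusted p = 0.18). Animals 1 and 3 were low, and animals 2 and 4 were close to the lowest control. Slc22a28 was at 73.3, 214, 247 and 254 CPM (log2 -0.62, adjusted p = 0.35) and Slc22a30 at 911, 1690, 1610 and 1630 CPM (log2 -0.43, adjusted p = 0.35), with animal 1 lowest in both. Slc22a26 was at 2.72, 0.448, 0.405 and 4.34 CPM (log2 2.12, SE 0.88, adjusted p = 0.14), high in animals 1 and 4 only. Slc22a18, at 63.2, 68.9, 50.1 and 54.2 CPM, lay above all PBS animals without passing (log2 0.59, adjusted p = 0.081). Slc22a29 was at 4.08, 5.61, 0.9 and 5.82 CPM against 0.373, 2.28, 1.2 and 1.93 in PBS (2.83-fold higher, adjusted p = 0.06), and was called without animal 3, the lowest (log2 1.82, adjusted p = 0.013) and by DESeq2 (adjusted p = 0.038).

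Cachexia against pre-cachexia within the C26 tumour called 1 member higher and 3 lower (9.09% of all genes). Slco1a1 was lower by -3.83 on the log2 scale (SE 0.52, adjusted p = 1.8e-05), Slc22a28 by -3.86 (SE 0.44, adjusted p = 1.2e-06) and Slc22a30 by -1.09 (SE 0.27, adjusted p = 0.0096), and the groups did not overlap in these 3. Slc22a26 was higher by 2.55 (SE 0.75, adjusted p = 0.027). That call was lost without cachectic animals 1, 3 or 4 or pre-cachexia animals 2 or 3 (log2 2.18 to 2.53, adjusted p up to 0.12) and with only the cohorts compared (adjusted p = 0.061). Slc22a27 differed by 0.68 (adjusted p = 0.5).

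Whole liver nuclei of the same animals also gave calls for Slco1a1 and the 4 chromosome 19 genes in both cachexia groups. In C26 cachexia 4 of 26 tested members were higher and 3 lower (22.1% of 13738 genes), and in 8025 cachexia 6 were higher and 5 lower (36.6%). Slco1a1 was at 1770, 1300, 997 and 1150 CPM in C26 PBS and 84.9, 24, 22.9 and 13.6 CPM in cachexia (log2 -5.16, adjusted p = 7.7e-08), and at 964, 628, 334 and 495 against 6.33, 38.6, 3.68 and 26.8 CPM in the 8025 cohort (log2 -5.02, adjusted p = 4e-08). No animals overlapped in either cohort. The log2 values in C26 and 8025 cachexia were -4.67 and -4.81 for Slc22a28, -1.72 and -2.15 for Slc22a30, 4.62 and 4.79 for Slc22a26, and 2.71 and 2.82 for Slc22a27. The cachexia effect itself differed between fractions for 0 of 27 members in the C26 cohort (0% of 14054 genes) and 0 in the 8025 cohort (0.0427%), in edgeR, with 1 member at an unadjusted p under 0.05 in each and 0 called by DESeq2. That edgeR fit does not use the pairing of the 2 libraries of an animal. With the animal as a block, 37 of all genes were called higher and 25 lower for C26, and 131 and 59 for 8025.

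Further members were called in whole liver nuclei of 8025 cachexia. Slc22a17 was at 1.74, 2.25, 2.44 and 2.11 CPM against 0.588, 1.33, 1.14 and 0.854 in PBS (log2 1.14, adjusted p = 0.008), and Slco2a1 at 128, 123, 103 and 113 against 62.3, 68.9, 70.7 and 121 CPM (log2 0.53, adjusted p = 0.025). Slc22a17 groups did not overlap, and Slco2a1 overlapped through PBS animal 4. The Slco2a1 call was lost without cachectic animal 1 or PBS animals 1, 2 or 3 (adjusted p up to 0.086) and with only the cohorts compared (adjusted p = 0.08). Slc22a15 rose by a log2 value of 0.67 (adjusted p = 0.0053). In the same libraries the summed Kupffer cell markers were at 711 to 1080 CPM against 287 to 368 in PBS, with 11 of 12 higher. Their part in Slc22a17 and Slco2a1 was not tested.

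Slc22a22 was at 0.784, 1.06, 1.48 and 0.905 CPM in whole liver nuclei of 8025 cachexia and 9.41, 2.26, 1.64 and 3.17 CPM in PBS (log2 -1.92, adjusted p = 0.0093). PBS animal 1 was the highest, and without it the log2 value was -1.10 with adjusted p = 0.15. Slc22a4 was called lower there (log2 -0.70, adjusted p = 0.019), but not without cachectic animals 2 or 3 or PBS animals 1 or 4 (adjusted p up to 0.11), and neither without TMM nor with only the cohorts compared (adjusted p = 0.052 to 0.065). Slco1b2, not called there (log2 -0.64, adjusted p = 0.082), was called lower without PBS animal 3 (log2 -0.83, adjusted p = 0.02), as was Slc22a23 (log2 -0.44, adjusted p = 0.041). In whole liver nuclei of C26 cachexia Slc22a18 (log2 0.80, adjusted p = 0.016) and Slco2b1 (log2 0.62, adjusted p = 0.0017) were higher, the former not without cachectic animal 2 or PBS animal 1 (adjusted p = 0.054 to 0.071) or without TMM (adjusted p = 0.057).

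Pre-cachexia called 3 members in whole liver nuclei, all higher (12.8% of all genes, 8.72% higher): Slc22a27 (log2 2.13, adjusted p = 0.0082), Slc22a29 (log2 1.57, adjusted p = 0.04) and Slco2b1 (log2 0.45, adjusted p = 0.032). Slc22a29 lost its call without any 1 of PBS animals 1, 3 and 4 or pre-cachexia animals 1, 2 and 4, and Slco2b1 without PBS animals 1, 3 or 4 or pre-cachexia animals 1 or 2 (adjusted p up to 0.13 and 0.14). Both were also lost without the filter on low counts and with a replicate block, and Slc22a29 with only the cohorts compared. Slco1a1 was below all controls there without passing (log2 -1.38, adjusted p = 0.057), and DESeq2 called it (adjusted p = 0.041). In NC26 and MC38 whole liver nuclei edgeR called 0 of 26 members (0.728% and 0% of all genes), with 4 and 1 at an unadjusted p under 0.05, and DESeq2 called 0 in both.

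The fractions were compared in PBS animals to see which members had higher or lower values in hepatocyte than in whole liver nuclei. Whole liver nuclei include hepatocyte nuclei, so this comparison cannot show which cells carry a gene. In the main fit Slco1b2 (log2 0.10, adjusted p = 0.57) and Slc22a30 (log2 0.17, adjusted p = 0.28) were not called. Of 27 tested members 5 were higher and 5 lower in hepatocyte nuclei (50.9% of 14054 genes), and with the animal as a block, since both libraries come from 1 liver, 22 were called (16 higher, 6 lower), with 69.6% of all genes called in that fit (41.4% higher, 28.2% lower). Slco3a1 was at 20.2 ± 11.3 CPM in the hepatocyte fraction and 70.5 ± 15.1 in whole liver nuclei (SD, n = 16), a log2 difference of -1.73 (adjusted p = 5.4e-16), and the highest hepatocyte library reached the lowest whole liver ones. Slc22a17 was at 0.172 ± 0.146 and 1.19 ± 0.431 CPM (log2 -2.50, adjusted p = 4.1e-13), and every whole liver library was above every hepatocyte library. Slco5a1, Slco4a1 and Slco4c1, each under 1 CPM, were also lower in hepatocyte nuclei. The Slco4a1 call was lost without C26 PBS animal 3 (log2 -1.49, adjusted p = 0.076). The Slco4c1 call (adjusted p = 0.041) was lost without C26 PBS animals 1, 2 or 4, NC26 PBS animals 1 or 2, MC38 PBS animals 1 or 4 or 8025 PBS animal 3 (adjusted p = 0.052 to 0.13; without C26 PBS animal 1, log2 -0.98, adjusted p = 0.057).

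Slco2b1 (195 against 166 CPM, log2 0.39, adjusted p = 9.5e-05), Slc22a18 (43.7 against 35.1 CPM, log2 0.48), Slc22a23 (910 against 786 CPM, log2 0.36) and Slc22a4 (38.9 against 32.4 CPM, log2 0.39) were among those higher in hepatocyte nuclei, with overlapping ranges. Without TMM scaling, which shifts the median of all genes by -0.13, Slc22a4 was not called (log2 0.26). Slco2a1 had 73.7 CPM in hepatocyte and 73.2 CPM in whole liver nuclei.

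The PBS animals also differed by strain, with 9 of 24 members higher and 2 lower in BALB/c than in C57BL/6N hepatocyte nuclei, against 41.2% of all genes called (20.5% higher, 20.7% lower). Slc22a30 had 29.2 CPM per kb in BALB/c and 14.6 in C57BL/6N (log2 1.01, adjusted p = 1e-04), Slco1a1 25.9 and 13.3 (log2 0.97, adjusted p = 0.02), Slco1b2 36 and 23.3 (log2 0.64, adjusted p = 0.011) and Slc22a28 4.38 and 1.71 (log2 1.38, adjusted p = 0.00021), each from 8 animals a strain. Slco1a1, Slc22a28 and Slc22a30, which fell in cachexia, were thus higher in BALB/c controls. Slc22a15 (log2 1.15, adjusted p = 4e-06) and Slc22a4 (log2 0.81, adjusted p = 0.00011) were higher too, as were Slc22a5 (log2 0.76) and Slc22a29 (log2 1.09). Slco1a4 (log2 -0.83, adjusted p = 0.036) and Slco3a1 (log2 -0.91, adjusted p = 0.0037) were lower in BALB/c.

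The strain calls of Slc22a5, Slc22a29 and Slco1a4 were each lost on leaving out single animals. For Slc22a5 these were 8025 PBS animals 2 or 3, MC38 PBS animals 2 or 4 or NC26 PBS animal 4 (log2 0.66 to 0.70). For Slc22a29 they were C26 PBS animals 2 or 4 or MC38 PBS animal 4 (log2 0.94 to 1.01). For Slco1a4 they were 8025 PBS animals 1 or 4, C26 PBS animal 1, MC38 PBS animals 1 or 3 or NC26 PBS animals 1 or 2 (log2 -0.80 to -0.67). Without C26 PBS animal 1, Slc22a18 (log2 -0.41, adjusted p = 0.029) and Slc22a3 (log2 0.75, adjusted p = 0.035) were called, and Slco1a4 was not (log2 -0.77). Strain and cohort cannot be told apart in this design.

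Other transporters and regulators were counted from lists chosen with earlier results of these data known. Of 27 tested transporters of bile acids and organic ions outside the 2 families, 3 rose and 2 fell in C26 cachexia, with the efflux pump Abcg2 at log2 -1.24 (adjusted p = 0.0043) and the bile salt export pump Abcb11 at 1.20 (adjusted p = 0.016). In 8025 cachexia 7 rose and 5 fell, among them the bile acid importer Slc10a1 at -1.18 (adjusted p = 0.0031) and the cation exporter Slc47a1 at -0.91 (adjusted p = 0.00018). Median log2 values of that list were -0.07 and 0.000279, beside 0.000277 and -0.02 for all genes. Of 28 transcription factors known to act on transporter genes, 4 rose and 4 fell in C26 and 3 rose and 5 fell in 8025 cachexia, where 22.2% and 29.3% of all genes were called. Stat3 rose by log2 values of 1.62 and 1.56 (adjusted p = 3e-07 in each), and Cebpa had values of -1.20 and -1.68.

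Since Slco1a1 is known as a growth hormone dependent gene, textbook genes of that kind were counted beside it. Of 12 growth hormone dependent genes with male-biased expression, 0 rose and 7 fell in each cachexia group. The median log2 value was -1.41 in C26 and -1.85 in 8025. Of all genes tested, 12.2% rose and 10% fell in C26 cachexia, and 16.2% and 13.1% in 8025 cachexia. The summed list overlapped in the C26 cohort, at 2750 to 4860 CPM in cachexia against 3960 to 4170 in PBS. In the 8025 cohort it did not (1080 to 1750 against 1950 to 9850 CPM). NC26 PBS animals alone ranged from 3590 to 27600 CPM. Hsd3b5, a steroid dehydrogenase, had log2 values of -4.53 in C26 and -8.67 in 8025, and the urinary protein gene Mup20 -4.43 in C26. Of 11 tested growth hormone repressed genes with female-biased expression, 7 rose and 0 fell in C26 (median 3.74), and 5 rose and 1 fell in 8025 (median 2.1). The 15 genes of that list summed to 511 to 1540 CPM in C26 cachexia against 27.3 to 55.1 in PBS. In the 8025 cohort the sums overlapped (307 to 904 against 21.9 to 467 CPM). The estrogen sulfotransferase Sult1e1 rose by 5.86 and 6.77, and Cyp2a4 was at -6.63 in 8025. In pre-cachexia 1 of the 12 male-biased genes fell and 0 of the 11 female-biased genes were called (7.72% of all genes called). In NC26 and MC38 edgeR called 0 of either list (0.324% and 0% of all genes). Both lists were chosen with earlier results of these data known. A part of growth hormone in the transporter values was not tested.

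Some markers of other cells were called in the hepatocyte libraries of the same groups. Of all genes tested there, 12.2% were higher and 10% lower in C26 cachexia. In pre-cachexia 4.78% were higher, and in 8025 cachexia 16.2% were higher and 13.1% lower. In C26 cachexia 7 of 12 Kupffer cell markers were higher (sum 85.2 to 125 CPM against 47.8 to 79.8 in PBS), 2 of 14 endothelial markers (315 to 450 against 209 to 377 CPM), and 3 of 4 tested neutrophil and monocyte markers. In pre-cachexia 7 of 12 Kupffer cell markers were higher (81 to 104 CPM). In 8025 cachexia 2 of 14 endothelial markers were higher (226 to 336 against 145 to 223 CPM), 4 of 4 tested neutrophil and monocyte markers, and summed cholangiocyte markers ranged from 222 to 697 CPM against 221 to 292 in PBS. Of 12 stellate cell markers 5 were higher and 1 lower there (sum 66.8 to 93.7 against 90.8 to 118 CPM), and 2 of 6 tested lymphocyte markers were higher (sum of the list 54.1 to 145 against 32.1 to 49.4 CPM). In C26 cachexia 2 of 12 stellate cell markers, 1 of 6 tested lymphocyte markers and 1 of 10 tested cholangiocyte markers were higher. These C26 counts, and the endothelial counts of both cachexia groups, were close to the share of all genes higher. Of 12 hepatocyte markers 3 were higher and 1 lower in each cachexia group. Their part in the transporter values was not tested.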

How the data were processed

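Gene counts of 20105 genes in 72 libraries were used as the authors deposited them: whole-number counts per gene, over a counted length that, per the file headers, equals the whole gene span with its introns. The submitters' processing notes name STAR 2.4.2a, DESeq2 1.24.0 and mm10; whether strand was used in counting is not given in the sources used here. Per the labels, total RNA without poly-A selection went into a stranded kit and was read as paired ends of 50 bases. Replicates are different animals per the labels.

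Genes were filtered by filterByExpr, scaled by TMM and tested with edgeR 4.0.16 (limma 3.58.1, R 4.3.3) by the quasi-likelihood test over the 36 libraries of a fraction (13274 and 13738 genes), or over all 72 (14054 genes) for comparisons of fractions. P-values were adjusted over all genes tested and called under 0.05. The SE is the log2 difference divided by the root of F. Of the members, 24, 26 and 27 could be tested. CPM uses TMM-scaled totals, and CPM per kb divides by the counted length. In simulated counts of the C26 cachexia comparison (13274 genes), 100% of genes with a log2 change of 3 or -3, 66% with -1 and 68% with 1 were called. There 13074 genes had no change, whereas 22.2% of genes were called in the data. The adjusted p depends on that share, so these rates need not hold in the data. Alternatives were DESeq2 1.42.0, no TMM, no filter, only the cohorts compared, removal of 5 genes with rRNA-like reads (1.04% to 7% of hepatocyte and 0.944% to 8.31% of whole liver counts), replicate blocks and leaving out each animal. The 2 fractions of an animal deviated together (correlation over 0.1 in 35 of 36 animals). No replicate libraries were identical. Members at 1 CPM or more in a group were named, with values by animal for those at 20 CPM or more or called with a log2 change of 1 or more. The members and lists were chosen with earlier results of these data known. Sequences come from RefSeq, and coding identities from GENCODE transcripts. Proteins are not used here. The values of 1 member are not reported here, though it is included in the counts and sums.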

Additional observations from a re-analysis of the deposited data

Results flagged for a closer look

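In 162 groups of 4 hepatocyte libraries, over 18 members, 15 had an animal whose gap to the nearest other exceeded Dixon's 95% limit, where chance gives about 1 in 20 (5%). Low animals were C26 PBS animal 1 for Slc22a15 (35.4 CPM) and Slc22a23 (689 CPM), 8025 cachectic animal 3 for Slco1b2 (550 CPM), 8025 PBS animal 3 for Slco2b1 (167 CPM) and C26 pre-cachexia animal 1 for Slc22a30 (911 CPM). High animals were C26 cachectic animal 1 for Slco1a1 (71.3 CPM), MC38 PBS animal 3 for Slco3a1 (56.7 CPM), and 8025 cachectic animal 3 for Slc22a3 (46.2 CPM). Slco2a1 stood apart in 8025 PBS animal 4 (133 CPM), C26 cachectic animal 2 (113 CPM) and C26 PBS animal 1 (177 CPM). MC38 tumour animal 4 stood apart for Slc22a3 (36.2 CPM) and Slc22a7 (38 CPM), NC26 tumour animal 1 for Slc22a7 (28.3 CPM) and MC38 tumour animal 2 for Slc22a30 (1540 CPM).

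The cachexia and weight-stable effects differed in a direct test for Slc22a28 (-3.98) and Slco1a1 (-4.48) between C26 and NC26. They differed for Slc22a26 (4.26), Slc22a28 (-4.40), Slc22a30 (-1.83) and Slco1a1 (-4.07) between 8025 and MC38, all as log2 differences in hepatocyte nuclei.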

How the results depend on the processing

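Over 68 calls of a member in a comparison, 1226 alternative runs kept the direction in all. Of these runs 1117 kept the call, 109 lost it and 0 reversed. Among members at 1 CPM or more in a group, 23 further calls appeared under other settings. The calls gained for C26 against 8025, given below, are not among these 23. On leaving out an animal, 21 further calls appeared. The number of members called moved by over 1.5 times as follows. In hepatocyte nuclei of C26 pre-cachexia it was 1, but 2 with DESeq2, 0 with only the cohorts compared and 0 with a replicate block. In whole liver nuclei of C26 pre-cachexia it was 3, but 1 with no filter on low counts and 1 with a replicate block. For C26 against 8025 it was 0, but 1 with DESeq2 and 1 on library totals without TMM. For the fractions it was 10, but 22 with the animal as a replicate block, where the share of all genes called went from 50.9% to 69.6%. Leaving out each animal in turn gave 6 to 8 calls in hepatocyte nuclei for C26 cachexia, 0 to 3 for pre-cachexia, 3 to 5 for cachexia against pre-cachexia and 6 to 8 for 8025. In whole liver nuclei it gave 6 to 7, 1 to 3 and 8 to 14 for C26 cachexia, pre-cachexia and 8025. It gave 2 to 3 for C26 against NC26, 3 to 5 for 8025 against MC38, 0 to 1 for C26 against 8025, 9 to 12 for strain and 9 to 10 for fraction, and 0 in all other comparisons. Without TMM the share of higher calls over all genes was 40.4% against 55% in hepatocyte C26 cachexia, 35.2% against 53% for cachexia against pre-cachexia, 34.9% against 53.5% in whole liver C26 cachexia, 68.2% against 51.1% in whole liver 8025 cachexia, 39.3% against 49.4% for C26 against NC26, 20.6% against 40.9% for C26 against 8025 and 17.5% against 51.9% for the fractions. The cause of these shifts was not tested. Taken over all cohorts, replicate numbers shared between tumour and PBS groups did not show a pairing of the animals (median correlation 0.00331, over 0.1 in 10 of 40 pairs). The block is therefore named beside a member only where it changed its call. Every C26 pre-cachexia pair was positive, at 0.0583 to 0.448 in hepatocyte nuclei and 0.056 to 0.189 in whole liver nuclei. The block lowered the number of members called in that comparison. Whether those animals were paired was not tested. Counts limit the rare members most: Slc22a26 rests on 0 to 25 counts in each PBS hepatocyte library.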
